A study of Homo sapiens with 4 samples.

Results

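The genes described here are those of DNA replication and of entry into S phase: 51 genes, taken by symbol from the 53777 Ensembl genes of the deposited expression table, each matched to 1 row. Their RNA was read in 4 sequencing libraries of NUGC3 cells, a human line that was established from stomach cancer. MYC knockdown cells (MYC_KD) gave 2 libraries, and wild-type cells (WT) gave the other 2. MYC is a transcription factor that drives cell growth and proliferation, and the comparison asks what its knockdown does to RNA levels. The labels give no treatment, time or clone and do not say how MYC was reduced. They do not tell whether the replicates are separate cultures, and the p-values then cover the spread among these libraries alone, which may be technical.

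Before S phase, the origin recognition complex, CDC6 and CDT1 load the ring-shaped MCM2 to MCM7 helicase onto DNA. The cyclin E and CDK2 kinase and the CDC7 and DBF4 kinase then recruit CDC45 and the GINS complex to the helicase. DNA polymerases alpha, delta and epsilon, the PCNA clamp and its RFC loader copy the DNA behind it. Most of these genes are textbook targets of E2F transcription factors, which are held by the RB protein until cyclin-dependent kinases release them, and many are also named among genes that MYC induces.

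All 51 genes passed the filter of at least 1 FPKM (fragments per kilobase of transcript, scaled to the sequenced fragments) in at least 2 libraries, and all were above 1 FPKM in every library. Their wild-type means lay between 2.26 and 324 FPKM with a median of 27.0, and 39 genes were at 20 FPKM or more. PCNA, the sliding clamp, was highest at 324 ± 4.14 FPKM, followed by POLD2, a small subunit of polymerase delta, at 154 ± 8.34 FPKM (SD, n = 2). E2F2, an activating E2F factor, was lowest at 2.26 ± 0.325 FPKM. All 6 epithelial markers searched (EPCAM, CDH1, KRT8, KRT18, KRT19 and CLDN4) were above 1 FPKM in every library. Of 4 leukocyte and 4 fibroblast markers 1 each was, CD68 and COL1A1. The leukocyte list summed to 21.5 and 22.3 FPKM in MYC_KD, against 12.4 and 17.2 FPKM in WT, and the fibroblast list to 8.14 and 2.98 FPKM, against 6.57 and 5.75 FPKM in WT. MYC itself stood at 65.0 and 75.8 FPKM in the MYC_KD libraries, against 82.9 and 82.0 FPKM in WT (log2 change −0.23 with a standard error of 0.10, limma adjusted p = 0.237). The summed FPKM of the Ensembl genes was 95.2% and 90.9% of that of WT replicate 1 in MYC_KD replicates 1 and 2, and 98.9% in WT replicate 2. The commonest ratio of low values put the depth of these libraries at 73%, 74% and 78% of that of WT replicate 1. Only depths below that of WT replicate 1 were searched, so these values cannot show that the libraries were shallower.

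On average over the MYC_KD libraries, most of the replication genes were slightly lower than in WT. The difference was mostly in MYC_KD replicate 2, and the median of MYC_KD replicate 1 lay near wild type. The median log2 difference from the WT mean over the 51 genes was −0.01 in MYC_KD replicate 1 and −0.23 in MYC_KD replicate 2, against 0.07 and 0.0085 over the 12953 genes tested. Differences are on the scale of log2(FPKM + 1), which understates those of low genes. For the group the median was −0.12, against 0.04 over all genes tested, and 39 of the 51 genes lay below 0, against 44.7% of all genes tested. In bulk RNA, fewer cells in S phase and less of these RNAs per cell cannot be told apart.

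No single gene passed the test. Limma with Benjamini-Hochberg adjustment over all genes called 0 of the 51 at 0.05, as it called 0% of the 12953 genes tested. At an unadjusted p under 0.05 there were 8, all lower in MYC_KD: POLD2, TIPIN, E2F8, RFC4, DBF4, UHRF1, CDT1 and RFC2 (11.5% of all genes tested were lower at that p and 14.4% higher, 25.9% in all). At the looser adjusted p of 0.10 there were 3, again lower, which were POLD2, E2F8 and TIPIN. That is 5.88% of the 51 genes. Over all genes tested 4.91% were lower and 5.5% higher, 10.4% in all, so the share of lower genes is close to the background.

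By position alone, 22 of the 51 genes had both MYC_KD values below both WT values and 4 had both above. Over all genes tested 25.2% were lower and 33.4% higher in this way, 58.6% in all. The 4 higher genes were GINS3, LIG1, E2F1 and E2F3. An exact permutation test of 2 libraries against 2 cannot give a p under 0.333. When FPKM sums were made equal the counts were 15 lower and 13 higher, against 18.1% and 44.7% of all genes tested, and the median over the 51 genes was −0.03, against 0.12 over all genes. The 11 genes that then turned from below to above 0 had changes between −0.09 and −0.01, among them PCNA, MCM5, CDC45, GINS1, POLA1 and PRIM1.

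**Figure D1:**
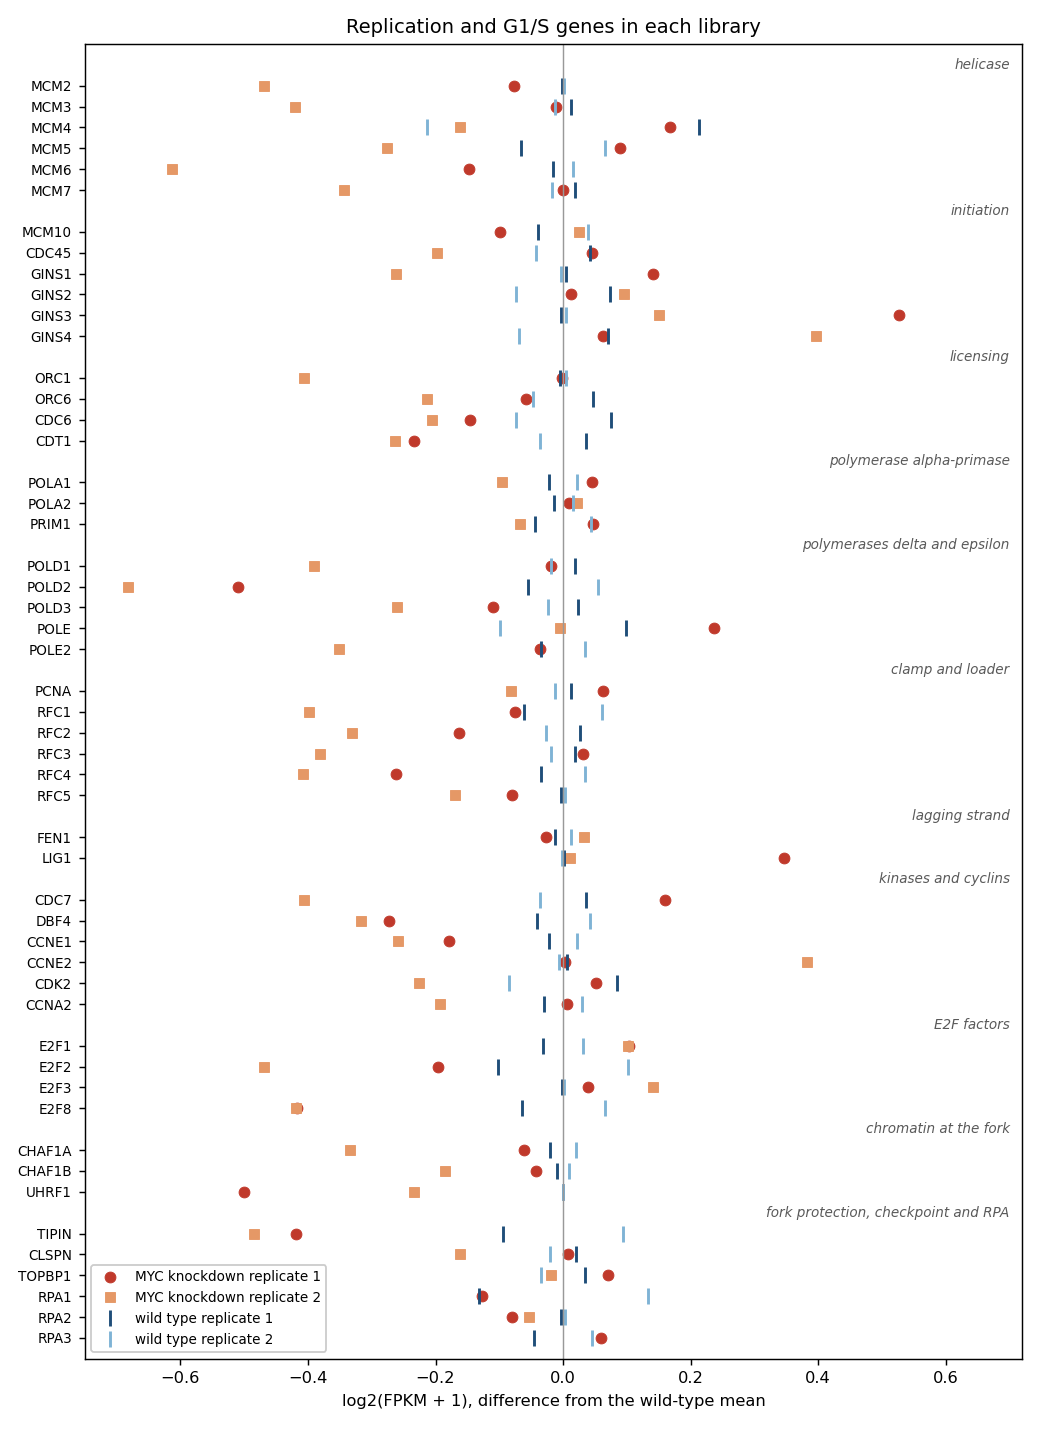
Difference of each library from the wild-type mean on the log2(FPKM + 1) scale (horizontal axis) for the 51 genes, grouped by role from the helicase at the top to fork protection at the bottom; circles and squares are the MYC knockdown libraries, vertical ticks the wild-type libraries. The squares of MYC knockdown replicate 2 lie left of both ticks for 38 genes, the circles of MYC knockdown replicate 1 for 24.

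The knockdown libraries differed from each other more than the wild-type libraries did. MYC_KD replicate 2 was below both WT values for 38 of the 51 genes (42.5% of all genes tested) and above both for 9 (44.1%). MYC_KD replicate 1 was below both for 24 (35.1%) and above both for 15 (51.8%). This balance turned with equal FPKM sums, to 16 below (29.4% of all genes tested) and 28 above (59%), while quantile normalization gave 34 below (43.1%) and 8 above (43.1%). For MYC_KD replicate 2 more genes lay below than above under both scalings. With equal FPKM sums 34 were below (30.3% of all genes tested) and 15 above (57.8%). With quantile normalization 37 were below (44.5%) and 6 above (42.2%). MYC_KD replicate 2 was at least 0.3 below the WT mean for 20 genes (18.8% of all genes tested), and MYC_KD replicate 1 for 4 (15% of all genes tested): POLD2, UHRF1, TIPIN and E2F8. For 16 genes MYC_KD replicate 2 alone was below both WT values (17.4% of all genes tested), and for 2, MCM10 and FEN1, MYC_KD replicate 1 alone was (9.96%).

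In 42 of the 51 genes MYC_KD replicate 2 was lower than MYC_KD replicate 1 (60.5% of all genes tested). Over the 51 genes the absolute log2 difference within a pair had a median of 0.20 for MYC_KD and 0.06 for WT. Over all genes tested the medians were 0.20 and 0.08. MYC_KD replicate 1, the library with less MYC RNA, was thus the one closer to wild type in these genes. It was also the one with high interferon-stimulated genes: 24 such genes summed to 1710 FPKM in MYC_KD replicate 1 and 254 FPKM in MYC_KD replicate 2, against 232 and 228 FPKM in WT. Whether either has a part in the difference between the knockdown libraries was not tested.

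**Figure D2:**
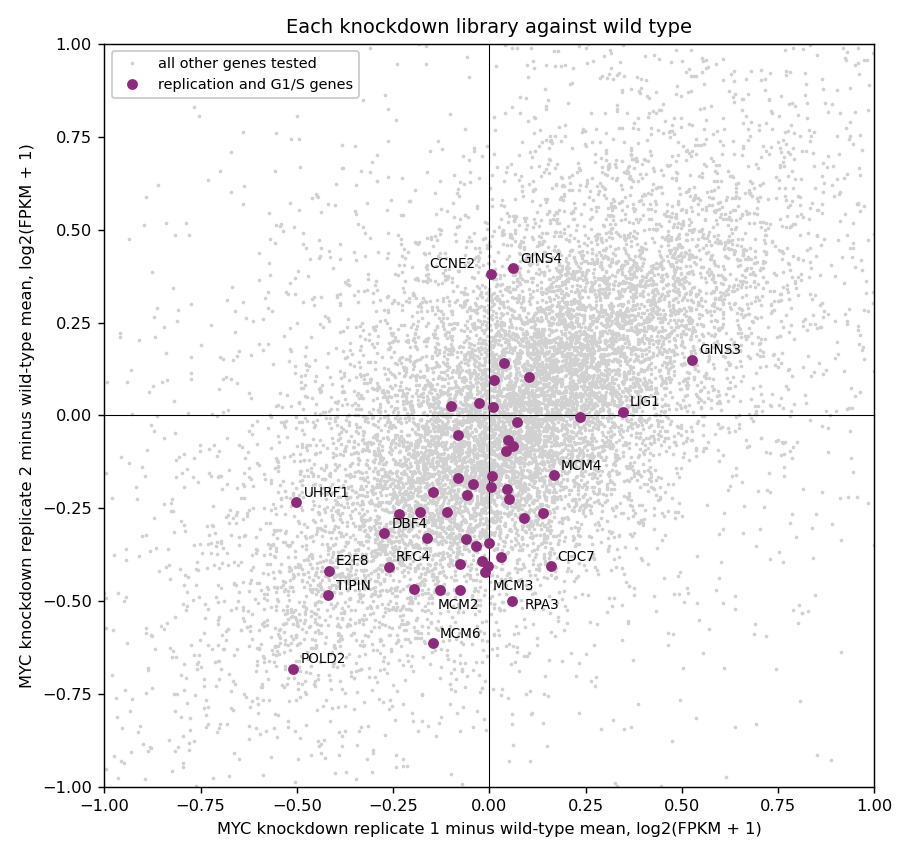
Difference from the wild-type mean on the log2(FPKM + 1) scale in MYC knockdown replicate 1 (horizontal) and in MYC knockdown replicate 2 (vertical), with the 51 replication and G1/S genes in purple and other genes tested in grey; axes end at −1 and 1, which leaves out 800 genes, none of them among the 51. Most purple points lie below the horizontal line and are spread along the vertical line, with POLD2, TIPIN and E2F8 low in both libraries and GINS3 to the right.

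Promoter sequence of 42 of the 51 genes was at hand from RefSeq (GRCh38.p14, 250 bases before to 50 after each start), and 24 of the 42 (57.1%) held the letters of an E2F site in it. The letters searched on both strands were TTTCCCGC, TTTGGCGC, TTTGCCGC and TTTCGCGC. The same letters were in 5.4% of the promoters of 15840 protein-coding genes and 3.99% of those of all 27303 genes. The E-box CACGTG, the sequence that MYC and its partner MAX bind, was in 6 of the 42 (10.9% of protein-coding genes): MCM2, MCM7, E2F3, FEN1, CHAF1A and RPA1. CCAAT, the site of the factor NF-Y, was in 25 of the 42 (59.5%), against 42.1% of protein-coding genes. The cell cycle element called CHR, searched as TTTGAA and TTCGAA, was in 3 of the 42 (7.14%), against 17.5% of protein-coding genes.

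The stretches below are the 250 bases before the start of POLD2, TIPIN, MCM6 and GINS3. POLD2 and TIPIN were lower in both knockdown libraries and had a limma adjusted p under 0.10. E2F8 had such a p too, but no promoter window was at hand for it. MCM6, whose difference was mostly in MYC_KD replicate 2, and GINS3, which was higher, were added. The stretches run 5′ to 3′ on the gene's own strand, and capitals mark matches to the letters above on either strand. POLD2 is at chr7:44123549-44123798 and TIPIN at chr15:66386718-66386967, both on the minus strand. MCM6 is at chr2:135876444-135876693 on the minus strand and GINS3 at chr16:58392221-58392470 on the plus strand. Each stretch is from the first listed window of its gene. For POLD2 and MCM6 the bases after the start were not found in a GENCODE transcript of the gene.
POLD2: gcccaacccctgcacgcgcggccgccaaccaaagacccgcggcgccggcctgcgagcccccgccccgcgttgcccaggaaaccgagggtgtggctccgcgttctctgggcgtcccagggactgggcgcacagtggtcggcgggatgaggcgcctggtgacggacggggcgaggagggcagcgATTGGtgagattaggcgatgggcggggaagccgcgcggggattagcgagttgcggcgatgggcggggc
TIPIN: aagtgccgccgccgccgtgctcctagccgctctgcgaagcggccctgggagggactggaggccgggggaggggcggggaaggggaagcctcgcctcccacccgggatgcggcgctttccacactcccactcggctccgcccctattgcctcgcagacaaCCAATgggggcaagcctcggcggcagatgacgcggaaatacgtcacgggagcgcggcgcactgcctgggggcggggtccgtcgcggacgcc
MCM6: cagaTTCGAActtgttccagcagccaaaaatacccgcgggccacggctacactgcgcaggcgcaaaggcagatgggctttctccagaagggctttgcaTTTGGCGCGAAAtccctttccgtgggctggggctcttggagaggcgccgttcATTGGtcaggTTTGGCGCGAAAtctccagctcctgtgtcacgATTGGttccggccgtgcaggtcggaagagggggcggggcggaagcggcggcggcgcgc
GINS3: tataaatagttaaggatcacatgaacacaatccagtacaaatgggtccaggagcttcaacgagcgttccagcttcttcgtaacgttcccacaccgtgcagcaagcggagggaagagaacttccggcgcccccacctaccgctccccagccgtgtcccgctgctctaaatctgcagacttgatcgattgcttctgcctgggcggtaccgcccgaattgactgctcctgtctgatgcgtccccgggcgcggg

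MCM6 showed E2F letters in 2 places, starting 152 and 90 bases before the start, and in each place 2 matches on opposite strands overlap by 4 letters. It also had ATTGG, which is CCAAT on the other strand, at 100 and 58 bases and the CHR letters TTCGAA at 246 bases. POLD2 had ATTGG at 68 bases and TIPIN had CCAAT at 91 bases, with no E2F letters in the stretch shown. GINS3 had no match in it; the E2F matches counted for TIPIN and GINS3 lie outside the printed bases. The genes with E2F letters had a median log2 difference of 0.01 in MYC_KD replicate 1 and −0.22 in MYC_KD replicate 2. The 18 genes without them had medians of −0.07 and −0.29. Over 606 protein-coding genes tested that hold E2F letters the medians were 0.05 and −0.03, and over 8205 without them 0.07 and 0.0078.

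The subunits MCM2 to MCM7 assemble as a ring with 1 copy of each. Their median log2 difference from the WT mean was −0.0059 in MYC_KD replicate 1 and −0.38 in MYC_KD replicate 2. In MYC_KD replicate 2 all but MCM4 were below both WT values, as were 42.5% of all genes tested. MCM6 stood at 44.6 and 32.0 FPKM in MYC_KD, against 49.0 and 50.1 FPKM in WT, the lowest of the 6 relative to wild type (log2 change −0.38 with a standard error of 0.17, limma adjusted p = 0.244). MCM2 stood at 57.4 and 43.5 FPKM, against 60.5 and 60.6 FPKM in WT. Both MYC_KD values of these genes lay below WT, but MYC_KD replicate 2 was at 64.7% and 71.8% of the WT mean where MYC_KD replicate 1 was at 90.1% and 94.7%.

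MCM3 stood at 84.0 and 63.0 FPKM in MYC_KD, against 85.4 and 83.9 FPKM in WT. MCM7 stood at 126 and 98.8 FPKM, against 127 and 124 FPKM in WT. In both, MYC_KD replicate 1 was within the WT range. MCM5 stood at 53.6 and 41.4 FPKM in MYC_KD, against 48.0 and 52.7 FPKM in WT, so that the knockdown libraries lay on opposite sides of wild type. MCM4 had 126 and 100 FPKM in MYC_KD, against 130 and 96.6 FPKM in WT, with groups that overlapped fully and the widest WT pair of the 6. Summed over the 6 subunits, the level was 491 and 379 FPKM in MYC_KD, against 500 and 468 FPKM in WT. The highest subunit stood at 2.83 and 3.13 times the lowest in MYC_KD and at 2.71 and 2.48 times in WT. The limma adjusted p of the other 5 was above that of MCM6 in the fit of all 4 libraries. Without MYC_KD replicate 2 the log2 changes of MCM2 to MCM7, in order, were −0.08, −0.01, 0.17, 0.09, −0.15 and −0.00052. Without MYC_KD replicate 1 they were −0.47, −0.42, −0.16, −0.28, −0.61 and −0.34. Each of these fits rests on 1 knockdown library, so only the size of the change is given.

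**Figure D3:**
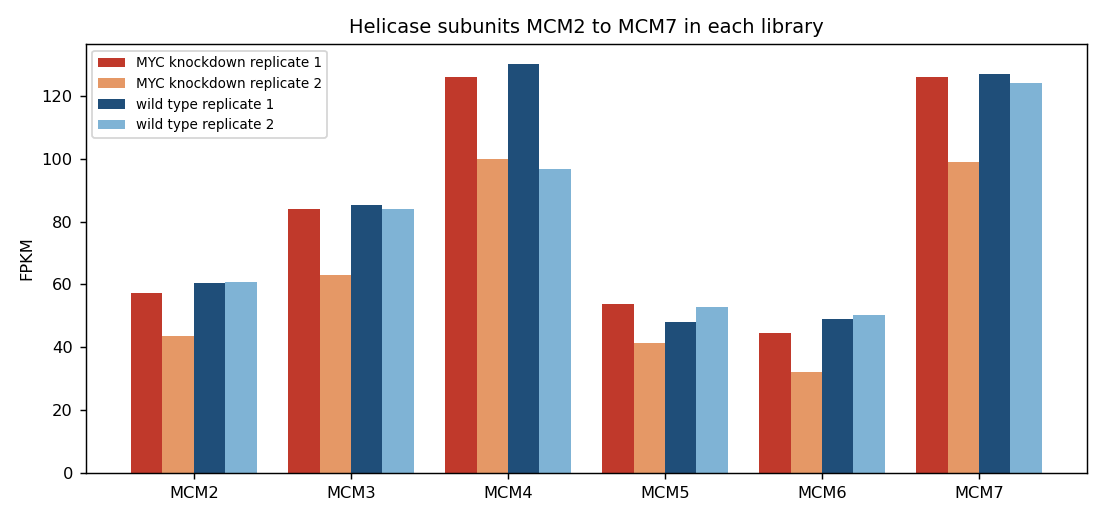
Level in FPKM (vertical axis, from 0) of the helicase subunits MCM2 to MCM7, with 1 bar for each library, knockdown libraries left and wild-type libraries right. MYC knockdown replicate 2 is the shortest bar for every subunit except MCM4, where wild type replicate 2 is shorter.

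MCM10, CDC45 and the GINS subunits turn the loaded ring into an active helicase, and as a group they lay near wild type, with median log2 differences of 0.05 in MYC_KD replicate 1 and 0.06 in MYC_KD replicate 2. GINS3 stood at 12.1 and 9.08 FPKM in MYC_KD, against 8.06 and 8.11 FPKM in WT. Both MYC_KD values were above WT, MYC_KD replicate 1 by more (log2 change 0.34 with a standard error of 0.16, limma adjusted p = 0.259). GINS4 stood at 25.1 and 31.9 FPKM, against 25.2 and 22.8 FPKM in WT, so that MYC_KD replicate 2 alone was above. GINS1 stood at 36.0 and 27.0 FPKM in MYC_KD, against 32.7 and 32.5 FPKM in WT, on opposite sides of wild type. The summed level of the GINS subunits was 86.3 and 81.9 FPKM in MYC_KD, against 79.7 and 75.7 FPKM in WT. CDC45 had 29.0 and 24.4 FPKM, against 28.9 and 27.2 FPKM in WT. GINS2 and MCM10 overlapped wild type, with log2 changes of 0.05 and −0.04.

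CDT1 and CDC6, which load the helicase, and the origin recognition subunits ORC1 and ORC6 all had log2 changes below 0. CDT1 stood at 32.0 and 31.3 FPKM in MYC_KD, against 38.8 and 36.8 FPKM in WT, and the knockdown libraries were close to each other (log2 change −0.25 with a standard error of 0.08, limma adjusted p = 0.153). CDC6 stood at 30.3 and 29.0 FPKM, against 35.4 and 31.8 FPKM in WT. ORC6 was at 95.8% and 85.6% of its WT mean in MYC_KD replicates 1 and 2. ORC1 stood at 10.8 and 7.93 FPKM in MYC_KD, against 10.8 and 10.9 FPKM in WT, a difference seen in MYC_KD replicate 2 alone.

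POLD2 showed the lowest value relative to wild type of the 51 genes. It stood at 108 and 95.5 FPKM in MYC_KD, against 148 and 160 FPKM in WT. The groups were well apart, with MYC_KD at 66.0% of WT (log2 change −0.60 with a standard error of 0.10, 95% interval −0.85 to −0.35, limma adjusted p = 0.0616). That adjusted p ranged from 0.00922 to 0.52 over the alternatives, lowest without MYC_KD replicate 1 and highest without WT replicate 2, and the change itself from −0.68 to −0.50. The other subunits of polymerase delta among the 51 genes, POLD1 and POLD3, were lower by less. The subunit POLD4, which is not among the 51 genes, was higher and is described further below. POLD1, the catalytic subunit, stood at 26.6 and 20.4 FPKM in MYC_KD, against 27.4 and 26.6 FPKM in WT. POLD3 stood at 21.4 and 19.2 FPKM, against 23.5 and 22.8 FPKM in WT. Of POLD1, POLD2 and POLD3, POLD2 was the most abundant in every library. It stood at 5.04 and 4.99 times the lowest of them in MYC_KD and at 6.29 and 7.02 times in WT.

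POLE, the catalytic subunit of the leading-strand polymerase epsilon, and its partner POLE2 differed in direction. POLE stood at 41.2 and 34.7 FPKM in MYC_KD, against 37.4 and 32.5 FPKM in WT, and the groups overlapped. POLE2 stood at 19.7 and 15.6 FPKM, against 19.7 and 20.7 FPKM in WT. The polymerase alpha and primase genes, which make the primers, lay close to wild type. POLA1, POLA2 and PRIM1 had log2 changes of −0.03, 0.02 and −0.01, with 95% intervals of −0.28 to 0.23, −0.20 to 0.23 and −0.24 to 0.22. PRIM1 and POLA1 had MYC_KD replicate 1 above and MYC_KD replicate 2 below both WT values, at 44.2 and 40.8 FPKM and at 22.6 and 20.4 FPKM in MYC_KD, against 41.5 and 44.1 FPKM and 21.5 and 22.2 FPKM in WT.

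Of the 5 subunits of the RFC clamp loader, 4 lay below both WT values in both MYC_KD libraries, as did 25.2% of all genes tested, and PCNA, the clamp, did not. RFC4 stood at 45.9 and 41.4 FPKM in MYC_KD, against 53.8 and 56.5 FPKM in WT (log2 change −0.33 with a standard error of 0.09, limma adjusted p = 0.116). RFC2 stood at 60.8 and 54.0 FPKM, against 69.4 and 66.9 FPKM in WT. In both genes the groups did not overlap and each MYC_KD library was lower. RFC1, the large subunit, and RFC5 were at 84.7% and 91.6% of WT over both MYC_KD libraries, with groups that did not overlap. Summed over the 5 subunits the loader stood at 205 and 179 FPKM in MYC_KD, against 224 and 226 FPKM in WT. RFC3 stood at 21.1 and 15.6 FPKM, against 20.9 and 20.3 FPKM in WT, so that MYC_KD replicate 1 was above wild type. PCNA stood at 339 and 306 FPKM in MYC_KD, against 327 and 321 FPKM in WT (log2 change −0.01, 95% interval −0.22 to 0.20). The difference between clamp and loader was not tested. With equal FPKM sums the change of PCNA was 0.09.

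FEN1, the nuclease that trims RNA primers, stood at 73.5 and 76.6 FPKM in MYC_KD, against 74.2 and 75.5 FPKM in WT (log2 change 0.0026, 95% interval −0.19 to 0.20). LIG1, the ligase that joins the fragments, stood at 26.7 and 21.0 FPKM in MYC_KD, against 20.8 and 20.8 FPKM in WT. For LIG1 MYC_KD replicate 1 was well above wild type and MYC_KD replicate 2 only just.

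**Figure D4:**
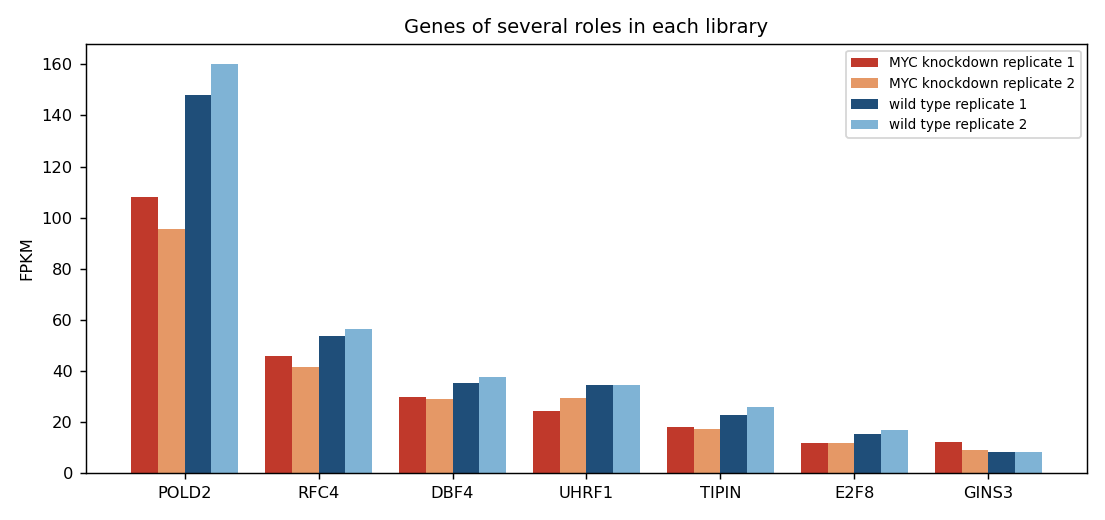
Level in FPKM (vertical axis, from 0) of POLD2, RFC4, DBF4, UHRF1, TIPIN, E2F8 and GINS3, with 1 bar for each library, knockdown libraries left and wild-type libraries right. Both knockdown bars are shorter than both wild-type bars for the first 6 genes and taller for GINS3.

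DBF4, the activating partner of the kinase CDC7, stood at 29.8 and 28.9 FPKM in MYC_KD, against 35.2 and 37.4 FPKM in WT (log2 change −0.29 with a standard error of 0.08, limma adjusted p = 0.123). CDC7 stood at 19.2 and 12.7 FPKM, against 17.6 and 16.7 FPKM in WT. The knockdown libraries were alike for DBF4 and on opposite sides of wild type for CDC7, whose standard error of 0.21 was the largest of the 51 genes. The cyclin E genes had opposite signs. CCNE1 stood at 16.6 and 15.6 FPKM in MYC_KD, against 18.6 and 19.2 FPKM in WT. CCNE2 stood at 13.6 and 17.9 FPKM, against 13.6 and 13.5 FPKM in WT, above wild type in MYC_KD replicate 2 alone. CCNA2, the cyclin of S and G2 phases, and CDK2 were at 93.8% and 94.2% of WT and overlapped it.

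E2F8, a repressor of E2F targets, was lower to the same degree in both knockdown libraries, at 11.7 and 11.7 FPKM in MYC_KD, against 15.2 and 16.7 FPKM in WT (log2 change −0.42 with a standard error of 0.10, limma adjusted p = 0.0996). The adjusted p of E2F8 ranged from 0.0409 to 0.674 over the alternatives, and the change from −0.48 to −0.33. E2F2 stood at 1.84 and 1.35 FPKM in MYC_KD, against 2.03 and 2.49 FPKM in WT (log2 change −0.33 with a standard error of 0.19, limma adjusted p = 0.333). The other activators E2F1 and E2F3 were slightly above wild type in both knockdown libraries. E2F1 stood at 18.9 and 18.8 FPKM in MYC_KD, against 17.1 and 17.9 FPKM in WT, and E2F3 had a log2 change of 0.09.

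UHRF1, which helps copy DNA methylation to the new strand, stood at 24.1 and 29.3 FPKM in MYC_KD, against 34.6 and 34.6 FPKM in WT (log2 change −0.37 with a standard error of 0.12, limma adjusted p = 0.149). It was lower in MYC_KD replicate 1 than in MYC_KD replicate 2, unlike 42 of the 51 genes. The deposited table gives it the biotype processed_transcript. The subunits of chromatin assembly factor 1, which places histones behind the fork, were at 87.0% of WT for CHAF1A and 91.8% for CHAF1B, with groups that did not overlap.

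TIPIN, which holds the helicase and polymerases together with TIMELESS, stood at 18.0 and 17.1 FPKM in MYC_KD, against 22.7 and 26.0 FPKM in WT (log2 change −0.45 with a standard error of 0.11, limma adjusted p = 0.0971, range 0.0396 to 0.656 over the alternatives). The checkpoint mediators CLSPN and TOPBP1 had log2 changes of −0.08 and 0.03 and overlapped wild type. RPA3, the small subunit of the single-strand binding protein RPA, stood at 65.2 and 43.9 FPKM in MYC_KD, against 60.6 and 64.5 FPKM in WT, on opposite sides of wild type. RPA1, the large subunit, stood at 22.2 and 17.3 FPKM, against 22.1 and 26.8 FPKM in WT. RPA2 was at 95.3% of WT and, although close, had both MYC_KD values below both WT values. In the fit of all 4 libraries the lowest limma adjusted p of these 3 RPA genes was 0.32, for RPA1. Without MYC_KD replicate 1 the log2 changes of RPA1, RPA2 and RPA3 were −0.47, −0.05 and −0.50. Without MYC_KD replicate 2 they were −0.13, −0.08 and 0.06.

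Other genes of the same processes gave a mixed picture. Of 34 further replication genes (such as ORC2, GMNN, PRIM2 and TIMELESS) 13 (38.2%) were lower and 9 (26.5%) higher with groups that did not overlap, against 25.2% and 33.4% of all genes tested, and the median log2 change was −0.07, or 0.02 with equal FPKM sums. By limma 0 passed 0.05, 2 were lower at an adjusted p under 0.10 and 5 (14.7%) had an unadjusted p under 0.05, a smaller share than the 25.9% of all genes tested. CDCA7, a chromatin factor known as a MYC-responsive gene, stood at 20.4 and 12.6 FPKM in MYC_KD, against 34.9 and 34.2 FPKM in WT (log2 change −1.06, limma adjusted p = 0.089). POLD4, the smallest subunit of polymerase delta, stood at 33.3 and 39.8 FPKM, against 25.2 and 27.6 FPKM in WT, the opposite direction to POLD2 (log2 change 0.45, limma adjusted p = 0.115).

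Of 28 genes of RB, E2F and G1/S control, 7 (25%) were lower and 12 (42.9%) higher with groups that did not overlap, against 25.2% and 33.4% of all genes tested. The median log2 change was 0.07, with 0.16 for equal FPKM sums, −0.02 without MYC_KD replicate 1 and 0.11 without MYC_KD replicate 2. CCND2, a D-type cyclin, stood at 0.60 and 0.24 FPKM in MYC_KD, against 3.71 and 3.06 FPKM in WT (log2 change −1.63, limma adjusted p = 0.0566). Both MYC_KD values of CCND2 were under the filter of 1 FPKM, so it was tested only because WT passed. Its adjusted p is therefore no independent support for a difference, and its values are near the floor. CCND1, another D-type cyclin, was higher, at 559 and 839 FPKM in MYC_KD, against 446 and 442 FPKM in WT. Its log2 change was 0.62 (limma adjusted p = 0.153), and CCND3 overlapped wild type. CDKN1A, the cyclin-dependent kinase inhibitor p21, stood at 18.0 and 39.3 FPKM, against 16.0 and 17.7 FPKM in WT. CDKN1A was thus well above wild type in MYC_KD replicate 2, the library in which most of the 51 genes were low. In MYC_KD replicate 1 it was only just above wild type (log2 change of the group 0.64, limma adjusted p = 0.342). Whether CDKN1A has a part in the difference between the knockdown libraries was not tested. At an adjusted p under 0.10 there were 3 lower, CCND2 among them, and 1 higher in this list. By limma 0 passed 0.05 and 10 (35.7%) had an unadjusted p under 0.05, against 25.9% of all genes tested.

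The 18 genes of G2 and M phase had medians of −0.07 in MYC_KD replicate 1 and −0.24 in MYC_KD replicate 2, close to those of the 51 genes. The median for the group was −0.15, or −0.05 with equal FPKM sums. Of these genes, 10 (55.6%) were lower and 4 (22.2%) higher with groups that did not overlap, against 25.2% and 33.4% of all genes tested. By limma 0 passed 0.05, and 5 (27.8%) had an unadjusted p under 0.05, against 25.9% of all genes tested. CDC20, an activator of the anaphase-promoting complex, stood at 107 and 88.0 FPKM in MYC_KD, against 133 and 136 FPKM in WT, and KIF20A, a mitotic kinesin, at 29.1 and 26.5 FPKM, against 38.0 and 37.5 FPKM in WT. No test set the lists against each other.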

How the data were processed

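Libraries were grouped by their sample titles. Trizol extraction and a standard Illumina preparation are named in the labels' protocols, and STAR and RSEM in the submitters' processing notes; no version, genome build, annotation or strandedness is given in the sources used here, so antisense reads cannot be told apart. The authors deposited values read here as FPKM, from their unequal sums and their steps, which shrink with transcript length. No read counts were at hand, so no counting interval was made. Of 344810 rows, the 53777 Ensembl genes were used; 10 pseudogene rows named after members reached at most 0.11 FPKM.

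The 12953 genes passing the filter of 1 FPKM in 2 libraries were fitted on log2(FPKM + 1), MYC_KD minus WT, with limma 3.58.1 in R 4.3.3 (eBayes with a mean trend, Benjamini-Hochberg adjustment over all genes, threshold 0.05), after the code was tested on simulated data. Members and lists were chosen with earlier results of these data known. Values in every library are given for members whose groups do not overlap with a log2 change of at least 0.3 either way. They are also given for those on opposite sides of wild type, and to complete a complex. From each list the 2 genes furthest from 0 among those not overlapping are named, with the other D-type cyclins beside CCND2. The marker PECAM1 was not matched, and the other endothelial markers, VWF and CDH5, summed to at most 0.2 FPKM. Promoters are RefSeq windows of 300 bases, 35 of 42 running into a GENCODE transcript of the gene on the same strand. Alternatives were the filter, the pseudocount, 2 scalings, the replicate number as a block, each library left out, the threshold and the promoter window.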

Additional observations from a re-analysis of the deposited data

How the results depend on the processing

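Settings that kept all 4 libraries left the count of members past 0.05 at 0: no filter, a mean of at least 5 FPKM, a pseudocount of 0.1, equal FPKM sums, quantile normalization and the replicate block. Over all genes the mean of at least 5 FPKM called 3.23% at 0.05, and the other settings 0%. Leaving out 1 library gave 0 to 23 at 0.05, 23 without MYC_KD replicate 1 and 7 without MYC_KD replicate 2, where the spread rests on the close WT pair and the lone library is assumed to vary like it; limma then called 29.2% and 29% of all genes. Without WT replicate 1 or 2 the count was 0. The count of 3 at 0.10 (10.4% of all genes) was 0 with no filter (0%), 1 with equal sums (17.2%), 1 with the replicate block (5.58%), and 0 to 31 with 1 library left out (31 without MYC_KD replicate 1, 43% of all genes, and 11 without MYC_KD replicate 2, 42.8%). Same-numbered libraries did not deviate together (correlation −0.0059 across genes), so the block pairs nothing known. The median over members kept its sign under every setting run: −0.03 with equal sums, −0.17 with quantile normalization, −0.23 without MYC_KD replicate 1 and −0.01 without MYC_KD replicate 2. In MYC_KD replicate 1 alone it was 0.05 with equal sums.

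Members above both WT values in both MYC_KD libraries numbered 13 with equal sums and 2 with quantile normalization, against 4 as reported (44.7%, 28.9% and 33.4% of all genes). In MYC_KD replicate 1 they were 28 and 8 (59% and 43.1% of all genes), against 15 (51.8%). In MYC_KD replicate 2 they were 15 with equal sums (57.8%), against 9 (44.1%). Those below both in MYC_KD replicate 2 were 34 and 37 (30.3% and 44.5%), against 38 (42.5%). The E2F letters were in 22 members with the shorter promoter window.

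Sign changes were seen in members whose reported change was within 0.22 of 0, in the settings run. With equal sums MCM5 (0.00087), CCNA2 (0.00042), CDK2 (0.0056), CLSPN (0.01), CDC45 (0.02), GINS1 (0.03), RPA2 (0.03), MCM10 (0.05), POLA1 (0.07), PRIM1 (0.08) and PCNA (0.09) lay above 0. With quantile normalization GINS2 (−0.0089), TOPBP1 (−0.0088) and POLA2 (−0.03) lay below 0 and PCNA above, at 0.07. With 1 library left out the ranges were −0.21 to 0.22 for MCM4, −0.28 to 0.09 for MCM5, −0.10 to 0.03 for MCM10, −0.20 to 0.05 for CDC45, −0.26 to 0.14 for GINS1, −0.02 to 0.13 for GINS2, −0.10 to 0.04 for POLA1, −0.07 to 0.05 for PRIM1, −0.0051 to 0.24 for POLE, −0.08 to 0.06 for PCNA, −0.38 to 0.03 for RFC3, −0.03 to 0.03 for FEN1, −0.41 to 0.16 for CDC7, −0.23 to 0.05 for CDK2, −0.19 to 0.0055 for CCNA2, −0.16 to 0.0076 for CLSPN, −0.02 to 0.07 for TOPBP1 and −0.50 to 0.06 for RPA3. The cause of these sign changes was not tested. FPKM gives no read counts, so depth cannot be tied to single values; E2F2, at 2.26 FPKM in WT, is the member nearest to the filter.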
